A study of Mus musculus with 6 samples.

Results

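Iron handling and the hepcidin axis were followed through 10 genes of the mouse, taken as the rows of the count table whose symbol equalled Hamp, Slc40a1, Cp, Heph, Trf, Tfrc, Slc11a2, Fth1, Ftl1 or Hmox1. All 10 were among the 33000 genes of the table. The rule used no measured value, though the members were chosen with earlier results of these data known. Messenger RNA of frontal cortex was sequenced with the Illumina TruSeq protocol in 2 groups of mice at 3 months of age. The WT group held 3 wild-type C57BL/6 samples, and the GFAP-IL6 group held 3 samples homozygous for a transgene that places the cytokine IL6 under the promoter of Gfap, which is active in astrocytes. Both groups carry the strain label C57BL/6. The study names 3 mice per genotype as the source of the RNA, so n counts mice. The comparison asks which iron genes differ between a cortex with astrocyte-driven IL6 and a wild-type cortex.

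Iron enters most cells when transferrin, the carrier of iron in plasma, binds the transferrin receptor and is taken up, after which the iron leaves the endosome through the divalent metal transporter. Iron that is not used is stored in ferritin, a shell of heavy and light chains, or leaves through ferroportin, the one known iron exporter of mammalian cells. A ferroxidase, either ceruloplasmin or hephaestin, oxidises the exported iron so that transferrin can bind it. Hepcidin, a peptide hormone made mainly by the liver, binds ferroportin and causes its degradation. In the liver IL6 raises hepcidin transcription through STAT3, and bone morphogenetic proteins (BMPs) raise it through SMAD factors. In the cell, iron regulatory proteins bind hairpins called iron-responsive elements, blocking translation when the hairpin lies in the 5′ untranslated region (UTR) and protecting the mRNA from decay when it lies in the 3′ UTR. Much of this control acts on translation or on the protein, neither of which was measured here.

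The hairpins are printed to show which members carry letters of the kind that iron regulatory proteins bind, and on which side of the coding sequence. A script searched the UTRs of GENCODE M21 transcripts (GRCm38) for an unpaired C, 5 bases, the loop CAGTGN and 5 bases that pair with the first 5, allowing G-U pairs and at most 1 mismatch. The capitals mark the unpaired C and the loop, and each sequence reads 5′ to 3′ along the transcript.
Fth1, 5′ UTR, exon 1, chr19:9982731-9982760, plus strand: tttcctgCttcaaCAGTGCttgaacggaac
Ftl1, 5′ UTR, exon 1, chr7:45459779-45459808, minus strand: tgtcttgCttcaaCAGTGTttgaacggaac
Slc40a1, 5′ UTR, exon 1, chr1:45925465-45925494, minus strand: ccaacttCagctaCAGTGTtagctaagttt
Slc11a2, 3′ UTR, exon 16, chr15:100395153-100395182, minus strand: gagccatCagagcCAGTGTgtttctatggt
Tfrc, 3′ UTR, exon 19, chr16:32631218-32631247, plus strand: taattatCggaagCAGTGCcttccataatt
Tfrc, 3′ UTR, exon 19, chr16:32631597-32631626, plus strand: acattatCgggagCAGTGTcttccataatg
Tfrc, 3′ UTR, exon 19, chr16:32631662-32631691, plus strand: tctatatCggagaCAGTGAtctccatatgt
Tfrc, 3′ UTR, exon 19, chr16:32631709-32631738, plus strand: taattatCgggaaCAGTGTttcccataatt
The hairpins of the ferritin chains and of ferroportin lay before the coding sequence, and those of Tfrc and Slc11a2 lay after it. The Slc11a2 hairpin paired 4 of 5 positions and all others paired 5. No such hairpin was found in the UTRs of Hamp, Cp, Heph, Trf or Hmox1 under this rule. Among 13842 coding genes tested for expression, 6.38% held a hairpin with at least 4 pairs and 0.975% one with 5 pairs, so a match by these letters alone is a description and not a site.

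**Figure D1:**
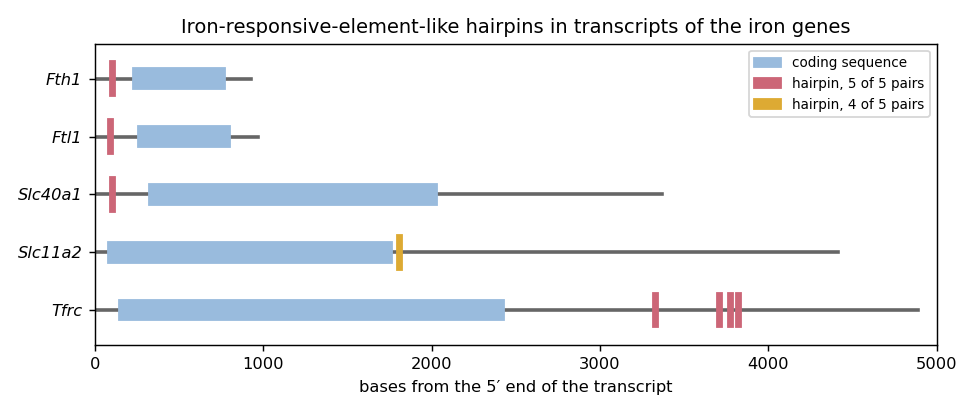
Transcripts of the 5 members with a hairpin, drawn to scale in bases from the 5′ end (x axis), with the coding sequence as a blue box, hairpins with 5 of 5 pairs in red and the hairpin with 4 of 5 pairs in yellow. The hairpin starts at base 86 of Fth1, 77 of Ftl1 and 89 of Slc40a1, all before the coding sequence, while the 4 of Tfrc start between bases 3314 and 3805, after it.

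The promoter of Hamp is shown because both routes of hepcidin control act there. The 59-base windows below come from RefSeq (GRCm38.p6, minus strand), with Hamp2, the second hepcidin gene of the mouse, for comparison. Capitals mark TTCNNNGAA, the letters of a STAT site, and GGCGCC, the core of a BMP-responsive site.
Hamp, chr7:30944098-30944156: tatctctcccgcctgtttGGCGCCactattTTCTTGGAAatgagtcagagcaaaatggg
Hamp2, chr7:30924247-30924305: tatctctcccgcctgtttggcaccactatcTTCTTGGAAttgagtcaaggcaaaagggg
The STAT letters lay 97 to 89 bases before the start of Hamp and 94 to 86 bases before that of Hamp2, and the windows had the same base at 53 of 59 positions. GGCGCC was present in the window of Hamp and not in that of Hamp2. Both motifs read the same on either strand. Over the full length of 32851 RefSeq promoter sequences, which are longer than the 59-base windows, 8.3% held TTCNNNGAA and 11.9% held GGCGCC. The RefSeq table held a promoter for 6 of these 11 genes, and Tfrc was the other member with GGCGCC.

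The libraries held between 7559524 and 16877001 counts, and the GFAP-IL6 libraries were the 3 shallowest. The labels were checked on Il6, counted 0, 2 and 0 times in the WT libraries and 12, 10 and 24 times in the GFAP-IL6 libraries, and on Gfap, at 94.5 ± 24.8 CPM (SD, n = 3) in WT and 678 ± 179 CPM in GFAP-IL6, where CPM is the counts-per-million level of a gene within its library. Of 15341 genes tested with edgeR's quasi-likelihood test, 439 passed an adjusted p of 0.05 (2.86%), 407 of them higher in GFAP-IL6 (2.65%), and 4067 had groups that did not overlap (26.5%). WT replicate 3 stood apart in markers of choroid plexus, the tissue that secretes cerebrospinal fluid, whose 8 genes summed to 630 CPM there and to between 5.49 and 62.5 CPM in the other libraries.

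Of the 10 iron genes, 9 had enough counts to be tested and 1 passed an adjusted p of 0.05. Cp was higher in GFAP-IL6. Heph was lower in all GFAP-IL6 libraries and Hmox1 was higher in all of them, without passing the adjusted threshold. The mRNAs of iron uptake, storage and export overlapped between the groups, and hepcidin mRNA was at the limit of detection in both groups. The share of 1 in 9 called, and of 3 in 9 with groups that did not overlap, stands beside the 2.86% and 26.5% of all genes. The median log2 fold change of the 9 was 0.01, and that of all genes tested was -0.0038. CPM are scaled by the trimmed mean of M values (TMM) throughout, apart from detection floors, and a log2 fold change is GFAP-IL6 over WT. In bulk tissue a change in the number of cells of a type and a change in mRNA per cell cannot be told apart.

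**Figure D2:**
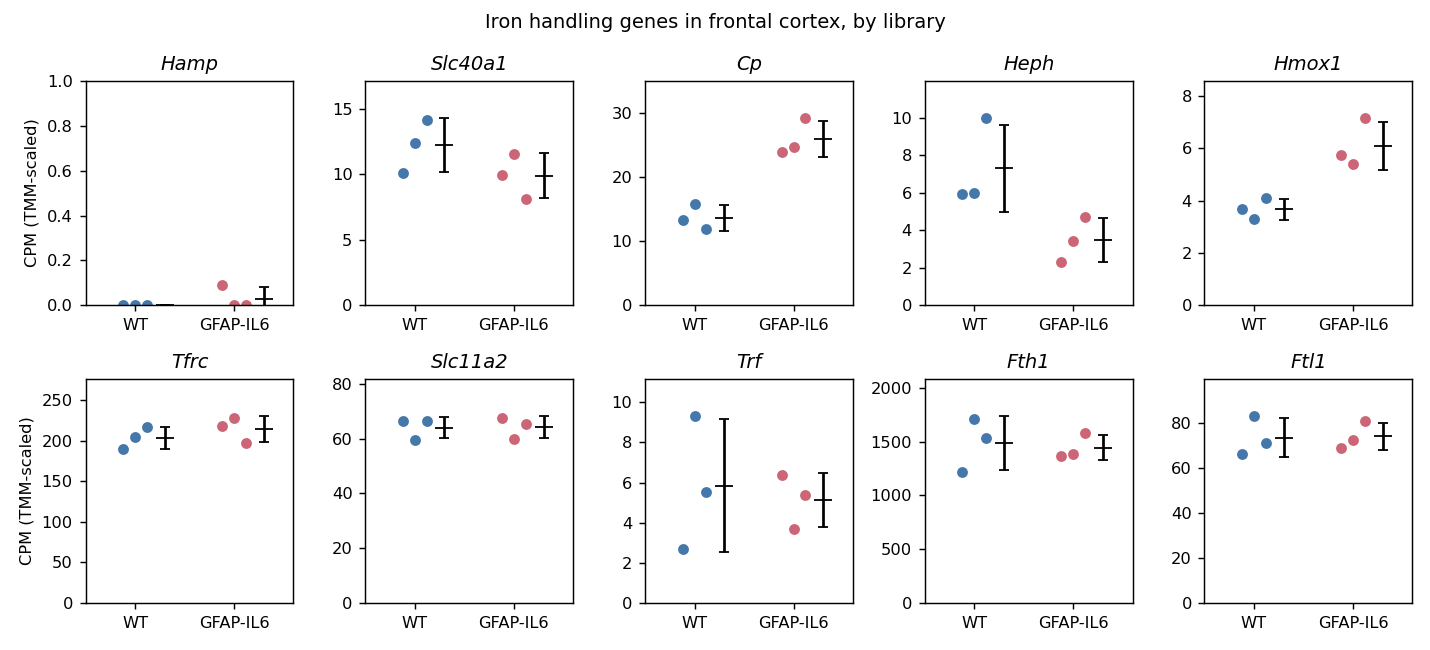
Each point is 1 library, on the y axis in TMM-scaled CPM from 0, for 3 WT (blue) and 3 GFAP-IL6 (red) libraries, with the mean and SD in black. The groups do not overlap for Cp, Heph and Hmox1, and overlap for the other 6 genes tested, while Hamp has 1 read in all.

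Hepcidin is encoded by Hamp (ENSMUSG00000050440, chr7:30942368-30944032, minus strand). It had no count in any WT library, 1 count in GFAP-IL6 replicate 1 and none in the other two GFAP-IL6 libraries. A library with no count allows up to 3 counts, which corresponds to between 0.178 and 0.397 CPM over the 6 libraries, counting error only. Hamp mRNA was therefore not detectable in these libraries apart from that read. Hamp did not pass the low-count filter, so the reported fit gave no fold change for it. A fit without that filter rests on the single read (adjusted p = 0.612 by edgeR). Its close relative Hamp2 was counted 1, 3 and 5 times in the WT libraries and 2, 0 and 1 times in those of GFAP-IL6, also too few to pass the low-count filter. Of the 75-base stretches of the Hamp transcript, 3.9% also occur in Hamp2.

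Ferroportin, the target of hepcidin, is encoded by Slc40a1 (chr1:45908068-45926523, minus strand). Slc40a1 was at 10.1, 12.4 and 14.2 CPM in the WT libraries and 9.95, 11.6 and 8.15 CPM in the GFAP-IL6 libraries. The groups overlapped, because GFAP-IL6 replicate 2 lay above WT replicate 1. The log2 fold change was -0.32 ± 0.17 (SE), with a 95% interval from -0.68 to 0.04 and an adjusted p of 0.295 by edgeR's quasi-likelihood test. A fall to 0.624 of the WT level and a rise to 1.03 times that level both lie within this interval.

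Ceruloplasmin, a multicopper ferroxidase that astrocytes carry in a membrane-anchored form, is encoded by Cp (chr3:19957054-20009145, plus strand). Cp was at 13.3, 15.8 and 11.8 CPM in WT and 23.8, 24.7 and 29.1 CPM in GFAP-IL6. The lowest GFAP-IL6 library lay above the highest WT library. Cp rose by a factor of 1.89 (95% interval 1.55 to 2.3), a log2 fold change of 0.92 ± 0.13 (SE, edgeR's quasi-likelihood test, adjusted p = 0.00146). The change was smaller than an absolute log2 fold change of 1, which the study required of a differentially expressed gene in addition to the adjusted p.

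Cp passed the threshold in every setting tried and without each library in turn, where its log2 fold change lay between 0.82 and 1.05. Choroid plexus also makes ceruloplasmin. The library rich in its markers, WT replicate 3, had the lowest Cp level of all 6, and without it the log2 fold change of Cp was 0.82 (adjusted p = 0.00706 by edgeR). None of the 6 astrocyte markers listed passed edgeR's test, and 1 passed with DESeq2, with log2 fold changes between -0.21 and 0.42 by edgeR. Gfap, an astrocyte gene outside this list, was higher in GFAP-IL6, as given above. Markers of endothelium, which lines the vessels, were also higher in GFAP-IL6, as given with Hmox1 below. The part of choroid plexus, astrocytes or endothelium in the Cp difference was not tested.

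Hephaestin, the other membrane ferroxidase, is encoded by Heph (chrX:96455359-96574485, plus strand). Heph was at 5.92, 6.02 and 9.98 CPM in WT and 2.33, 3.43 and 4.69 CPM in GFAP-IL6, from 26 to 159 counts per library. Every WT library lay above every GFAP-IL6 library, and WT replicate 3 was the highest. The log2 fold change was -1.10 ± 0.28 (SE, 95% interval -1.71 to -0.49), or 2.14-fold lower in GFAP-IL6, with an adjusted p of 0.059 by edgeR's quasi-likelihood test, which missed the threshold. Across the alternatives the adjusted p ran from 4.5e-04 to 0.232, and Heph passed without the low-count filter and with DESeq2. With DESeq2, the tool of the study, the log2 fold change of -1.09 (adjusted p = 0.0208) also met the size of 1, as did 1.28% of the genes to which DESeq2 gave an adjusted p, and Heph was the single member that met both.

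WT replicate 3 also held the choroid plexus markers, and without it the log2 fold change of Heph was -0.80 with an adjusted p of 0.149. Without WT replicate 1 or WT replicate 2, Heph passed, at -1.22 (adjusted p = 0.0299) and -1.24 (adjusted p = 0.0152) by the same edgeR test. Leaving out GFAP-IL6 replicate 1, 2 or 3 gave -0.84 (adjusted p = 0.232), -1.10 (adjusted p = 0.159) and -1.38 (adjusted p = 0.0886). Of the 8 choroid plexus markers 5 were tested, all lower by sign in GFAP-IL6, and none passed with edgeR, DESeq2 or limma-voom. Without the low-count filter 6 of the 8 passed by edgeR, beside 1154 of all 22621 genes in that fit. The sum of the choroid plexus markers was 5.49, 20.2 and 630 CPM in WT and 16, 62.5 and 7.7 CPM in GFAP-IL6. Outside WT replicate 3, the order of the libraries by this sum differed from their order by Heph. The 10 oligodendrocyte markers, given with Trf below, were all lower by sign in GFAP-IL6, and none passed by edgeR. The part of choroid plexus or oligodendrocyte content in Heph was not tested. The 2 ferroxidases differed in direction, with Cp higher and Heph lower in all 3 GFAP-IL6 libraries.

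**Figure D3:**
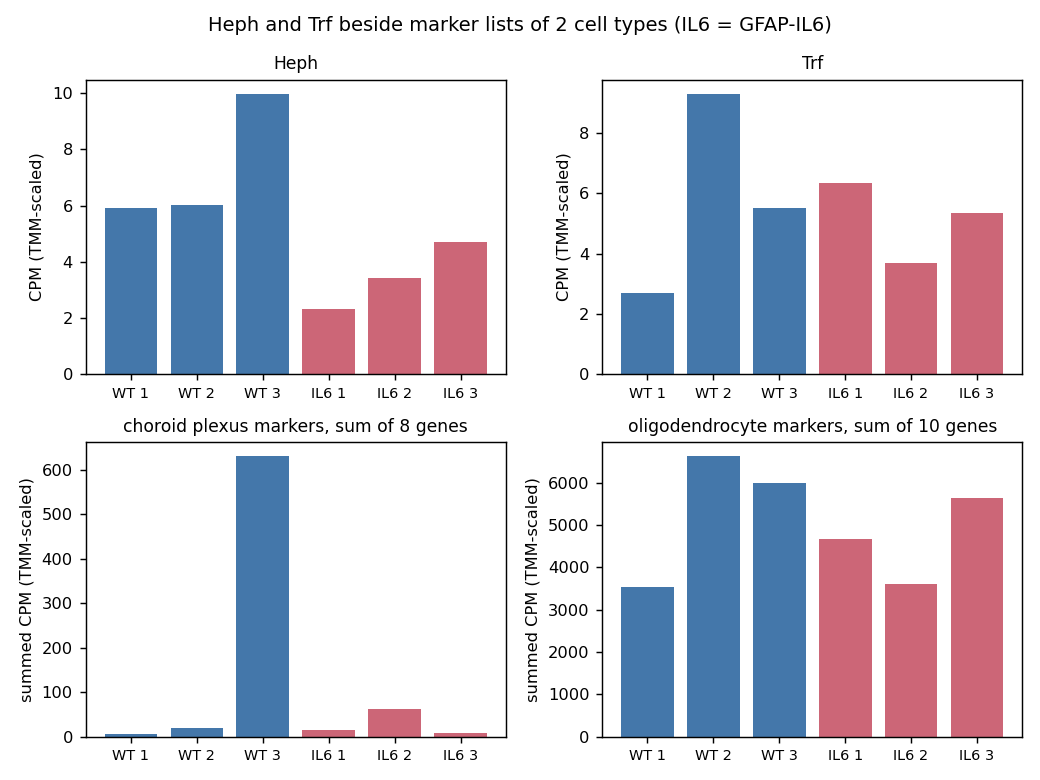
Bars give TMM-scaled CPM from 0 in each of the 6 libraries for Heph and for the sum of 8 choroid plexus markers (left), and for Trf and the sum of 10 oligodendrocyte markers (right), with WT in blue and GFAP-IL6 in red. WT replicate 3 is highest in both left panels and WT replicate 2 is highest in both right panels. Among the other libraries the order differs between the upper and lower panels on either side.

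Transferrin, made in the brain mainly by oligodendrocytes and choroid plexus, is encoded by Trf (chr9:103204001-103230444, minus strand). Trf was at 2.70, 9.31 and 5.52 CPM in WT and 6.36, 3.70 and 5.36 CPM in GFAP-IL6. The WT libraries spread more widely than the groups differed, and all GFAP-IL6 values lay between the lowest and highest WT values. The log2 fold change was -0.20 ± 0.35 (SE, 95% interval -0.95 to 0.56, adjusted p = 0.779 by edgeR), and without WT replicate 2 it turned to 0.30.

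The sum of 10 oligodendrocyte markers was 3539, 6623 and 6000 CPM in WT and 4665, 3609 and 5638 CPM in GFAP-IL6. The libraries with the lowest sums, WT replicate 1 and GFAP-IL6 replicate 2, also had the lowest Trf. None of the 10 markers passed the test between genotypes, and the part of oligodendrocyte content in Trf was not tested. The level of Trf itself is uncertain, since 63.5% of its exon bases are also annotated to the gene model Gm20425 on the same strand, which was listed at 0 in every library. The study describes counting of uniquely aligned reads, and does not say how a read on a pair of overlapping genes was assigned.

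The transferrin receptor, encoded by Tfrc (chr16:32608920-32632794, plus strand), was at 190, 204 and 217 CPM in WT and 218, 228 and 197 CPM in GFAP-IL6. The groups overlapped, and the log2 fold change of 0.07 ± 0.09 (SE) had a 95% interval from -0.11 to 0.26 (adjusted p = 0.663 by edgeR). With 1723 counts or more in each library, Tfrc was measured closely enough that a rise to more than 1.2 times the WT level lay outside the interval.

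The divalent metal transporter DMT1, encoded by Slc11a2 (chr15:100387898-100425072, minus strand), was at 66.4, 59.5 and 66.3 CPM in WT and 67.6, 59.8 and 65.3 CPM in GFAP-IL6. The groups ran over the same range, and the ratio between them was 1.01 with a 95% interval from 0.885 to 1.14 (adjusted p = 0.97 by edgeR). Its sign turned when any of 3 single libraries was left out.

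Ferritin heavy chain, which oxidises iron as it enters the shell, is encoded by Fth1 (chr19:9980598-9985098, plus strand). Fth1 was at 1220, 1712 and 1533 CPM in WT and 1364, 1386 and 1580 CPM in GFAP-IL6. The lowest and the highest library were both WT. The log2 fold change was -0.04 ± 0.12 (SE, 95% interval -0.29 to 0.21, adjusted p = 0.858 by edgeR).

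Ferritin light chain, which helps the iron core to form, is encoded by Ftl1 (chr7:45457944-45459884, minus strand). Ftl1 was at 66.1, 83.1 and 71.3 CPM in WT and 68.9, 72.5 and 80.8 CPM in GFAP-IL6. Here too the WT libraries spanned the GFAP-IL6 ones, and the log2 fold change was 0.01 ± 0.10 (SE, 95% interval -0.21 to 0.23, adjusted p = 0.972 by edgeR). The level of Ftl1 is uncertain, because 84.8% of the 75-base stretches of its transcript occur in at least 1 of 8 other genes or gene copies, against 2.3% for Fth1. The copy of Ftl1 that the table lists separately was at 0 in every library.

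Heme oxygenase 1, the inducible enzyme that frees iron from heme, is encoded by Hmox1 (chr8:75093621-75100589, plus strand). Hmox1 was at 3.66, 3.28 and 4.08 CPM in WT and 5.74, 5.41 and 7.14 CPM in GFAP-IL6, from 41 to 65 counts per library. Every GFAP-IL6 library lay above every WT library. The ratio was 1.66 with a 95% interval from 1.24 to 2.23, and the log2 fold change of 0.73 ± 0.19 (SE) had an adjusted p of 0.0691 by edgeR's quasi-likelihood test, above the threshold. Across the alternatives the adjusted p ran from 0.0238 to 0.329, and Hmox1 passed without the low-count filter and after thinning all libraries to the smallest total. The constitutive enzyme of the same reaction, Hmox2, was at 64 ± 6.47 CPM in WT and 58.7 ± 1.63 CPM in GFAP-IL6 (SD, n = 3, adjusted p = 0.438 by edgeR).

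Markers of microglia, the resident macrophages of brain and a cell type that can express Hmox1, moved with the genotype. The sum of 6 microglia markers was 324, 400 and 380 CPM in WT and 564, 560 and 638 CPM in GFAP-IL6, and 5 of the 6 passed the test, all higher. The exception was P2ry12, which was lower by sign, at 46.3 CPM in WT and 38.4 CPM in GFAP-IL6 on average. Its log2 fold change was -0.27 (adjusted p = 0.291 by edgeR). The sum of 6 endothelial markers was 168, 162 and 181 CPM in WT and between 248 and 279 CPM in GFAP-IL6, with 4 of 6 passing, all higher. The part of either cell type in the levels of Hmox1 and Cp was not tested. Red blood cell genes, a source of heme, summed to between 26 and 39.6 CPM, and none of the 5 tested passed.

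**Figure D4:**
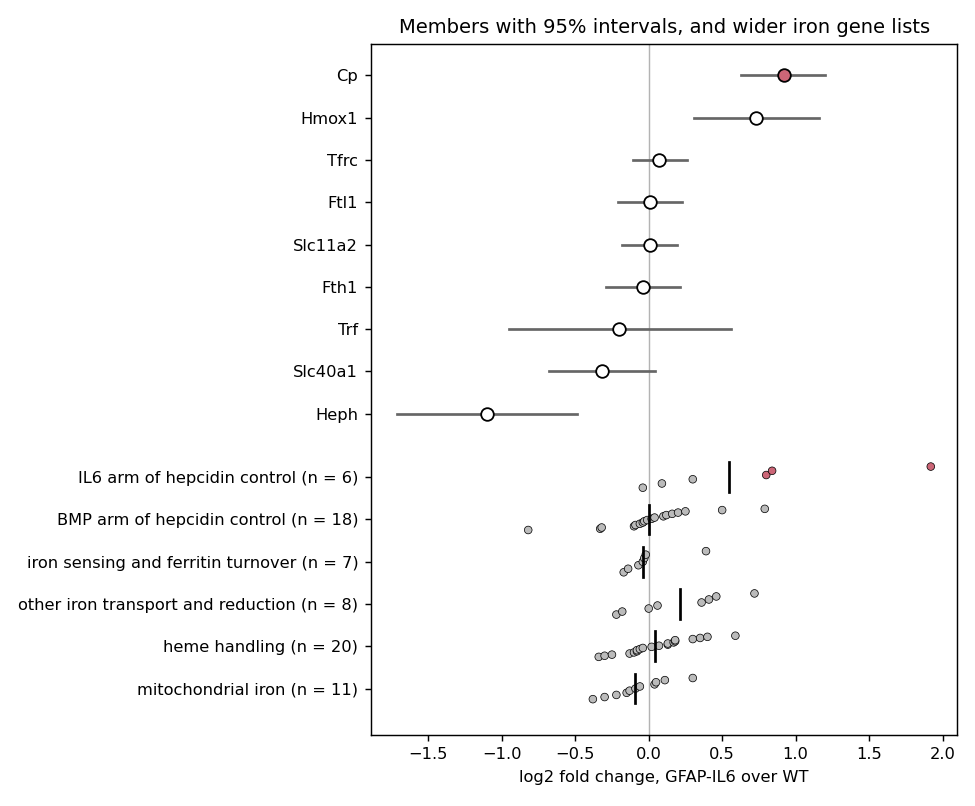
Log2 fold change of GFAP-IL6 over WT (x axis) for the 9 members tested, with 95% intervals, and for 70 genes of wider iron lists, each point 1 gene and each bar a list's median. Red marks an adjusted p under 0.05, reached by Cp and by 3 genes of the IL6 arm.

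Compared per transcript length, as transcripts-per-million values (TPM), the members kept a steep order. Fth1 averaged 4754 TPM in WT and 4858 TPM in GFAP-IL6, Ftl1 210 and 223 TPM, Tfrc 109 and 120 TPM, and Slc11a2 31 and 32.7 TPM. The ranges of neighbours in this upper part of the order did not overlap in either group, with the level of Ftl1 uncertain as stated. In WT, Slc40a1 came next at 10.1 TPM and lay above Cp in all 3 libraries, while Cp (6.52 TPM), Hmox1 (6.36 TPM), Trf (5.84 TPM) and Heph (3.39 TPM) had ranges that overlapped from each to the next. In GFAP-IL6 the order was Cp at 13 TPM, Hmox1 at 11.1 TPM and Slc40a1 at 8.57 TPM, each overlapping the next, then Trf at 5.46 TPM and Heph at 1.69 TPM. The level of Trf, and so its place in either order, is uncertain as stated with Trf above. 

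**Figure D5:**
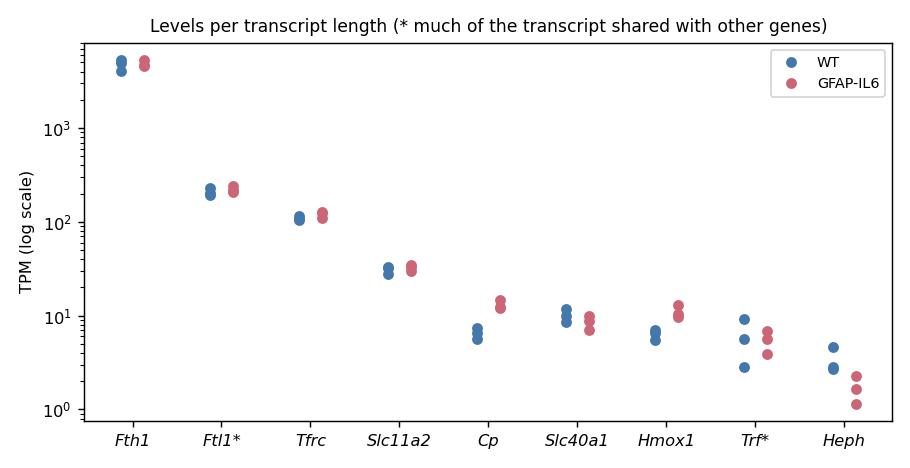
TPM on a log axis for the 9 members tested, each point 1 library, WT in blue and GFAP-IL6 in red, with an asterisk where much of the transcript is shared with other genes. Fth1 lies at 4021 TPM or more in every library, and Cp and Heph separate by genotype in opposite directions.

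Ratios within a library remove its depth and scaling. The log2 ratio of Slc40a1 to Tfrc, export against uptake, was -3.61, -3.41 and -3.31 in WT and -3.83, -3.67 and -3.97 in GFAP-IL6. All GFAP-IL6 values lay below all WT values, and the difference of -0.38 had p = 0.1 in an exact permutation test (two-sided), where 3 libraries a group allow no smaller value, and 0.3 after adjustment over the 3 ratios. The log2 ratio of the ferritin chains, Fth1 to Ftl1, was 4.37, 4.53 and 4.59 in WT and 4.47, 4.42 and 4.45 in GFAP-IL6 (difference -0.05, exact p = 0.5). The size of this ratio is uncertain, because the level of Ftl1 is uncertain as stated. The log2 ratio of Tfrc to Fth1, uptake against storage, was -5.27, -5.65 and -5.41 in WT and -5.23, -5.19 and -5.59 in GFAP-IL6 (difference 0.11, exact p = 0.5). Neither of the last 2 ratios separated the groups.

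The wider pathway was read from lists of 78 further genes, of which 70 were tested and 3 passed an adjusted p of 0.05, all higher in GFAP-IL6, beside 2.86% of all genes tested. All 3 belong to the IL6 arm of hepcidin control, where 6 genes were tested. Socs3, the feedback inhibitor that STAT3 induces, was at 2.44, 2.80 and 2.95 CPM in WT and 10, 8.98 and 12.3 CPM in GFAP-IL6, and its log2 fold change was 1.92 ± 0.19 (SE, adjusted p = 7.4e-05 by edgeR). Stat3 itself was at 47.6 ± 0.784 CPM in WT and 82.7 ± 13.1 CPM in GFAP-IL6 (SD, n = 3, adjusted p = 8.6e-04 by edgeR). The IL6 receptor gene Il6ra was at 7.24 ± 0.782 CPM in WT and 13 ± 0.561 CPM in GFAP-IL6 (SD, n = 3, adjusted p = 0.00419 by edgeR). For none of the 3 did the groups overlap, as for 26.5% of all genes tested. Over the 70 genes 36 were higher and 34 lower by sign, and the median log2 fold change was 0.01.

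In the BMP arm 18 genes were tested and none passed with edgeR, DESeq2 or limma-voom. By edgeR 4 of the 18 had an unadjusted p under 0.05, beside 3139 of the 15341 genes tested. Bmp6, the ligand that reports liver iron, was at 3.96 ± 0.601 CPM in WT and 4.35 ± 1.15 CPM in GFAP-IL6 (SD, n = 3). The BMP co-receptor Hjv was at 1.86 ± 0.264 and 1.47 ± 0.407 CPM, in the same order. Of the targets of BMP signalling, Id1 was at 7.79 ± 1.8 CPM in WT and 11.1 ± 0.719 CPM in GFAP-IL6 (adjusted p = 0.14 by edgeR), and Smad7 at 21.3 ± 1.56 and 23 ± 0.889 CPM. Tmprss6, the protease that cleaves the product of Hjv, had at most 7 counts in any library. Hfe and Erfe, named after their values were seen, had the extreme log2 fold changes of this arm. These were 0.79 (adjusted p = 0.0839) and -0.82 (adjusted p = 0.194), neither past the threshold in the reported edgeR fit. Hfe passed by edgeR without the low-count filter, with replicate number as a block and without GFAP-IL6 replicate 1. Id1 passed by edgeR without WT replicate 2. No other gene of this arm passed under any alternative.

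Among 7 genes of iron sensing and ferritin turnover none passed with edgeR or limma-voom, and 1, Epas1, passed with DESeq2. The iron regulatory proteins that bind the hairpins above are encoded by Aco1, at 33.1 ± 1.28 CPM in WT and 32.7 ± 1.86 CPM in GFAP-IL6, and Ireb2, at 86.7 ± 1.85 and 85.1 ± 2.12 CPM (SD, n = 3). Ncoa4, the receptor that delivers ferritin to lysosomes, was at 17.9 ± 1.21 and 17.4 ± 1.89 CPM. The 95% intervals of these log2 fold changes ran from -0.21 to 0.17 for Aco1, from -0.19 to 0.14 for Ireb2 and from -0.29 to 0.22 for Ncoa4. Epas1, an oxygen-sensing transcription factor whose mRNA has an iron-responsive element, was named after its values were seen. Its log2 fold change was 0.39 (adjusted p = 0.0742 by edgeR). Epas1 passed by edgeR without the low-count filter, with replicate number as a block and without WT replicate 3.

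Of 8 tested genes of other iron transport and reduction none passed with any of the 3 tools. By edgeR 2 of the 8 had an unadjusted p under 0.05, beside 3139 of the 15341 genes tested. Slc39a14, a transporter of iron not bound to transferrin, was at 36.1, 31.1 and 31.1 CPM in WT and 44.6, 38.2 and 43 CPM in GFAP-IL6. Its groups did not overlap, as for 26.5% of all genes tested. The log2 fold change of 0.36 ± 0.10 (SE) had an adjusted p of 0.074 by edgeR. Slc39a14 passed by edgeR without the low-count filter, with replicate number as a block and without WT replicate 1. Lcn2, a protein that binds iron-carrying siderophores, was counted 0, 1 and 0 times in the WT libraries and 1, 21 and 15 times in those of GFAP-IL6, so that nearly all of its reads came from GFAP-IL6 replicates 2 and 3. Lcn2 did not pass the low-count filter. Without that filter edgeR called it higher (adjusted p = 1.0e-05), as it did without WT replicate 1, WT replicate 2 or GFAP-IL6 replicate 1, where the adjusted p was 0.0399, 0.033 and 0.00118, while it was 0.0861 without WT replicate 3 and 0.0545 with DESeq2. Neutrophils also carry Lcn2, and the 6 neutrophil markers were at 4 counts or fewer in every library. The part of neutrophils in the Lcn2 reads was not tested.

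In heme handling 20 genes were tested and none passed with any of the 3 tools, 5 of them at an unadjusted p under 0.05. Lrp1, the gene of the hemopexin receptor, was named after its values were seen. It passed by edgeR without the low-count filter and without WT replicate 1, but not in the reported fit (adjusted p = 0.172). The plasma scavengers of hemoglobin and heme were near the limit of detection, with Hp at 1 to 4 counts and Hpx at 2 to 7 counts per library. Cd163, the macrophage receptor for hemoglobin bound to haptoglobin, was at 1.97 ± 0.292 CPM in WT and 2.18 ± 0.603 CPM in GFAP-IL6 (SD, n = 3). Among 11 genes of mitochondrial iron none passed with any of the 3 tools, 3 of them at an unadjusted p under 0.05, and their log2 fold changes lay between -0.38 and 0.30. For comparison, 3139 of the 15341 genes tested had an unadjusted p under 0.05.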

How the data were processed

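Frontal cortex libraries of 3 WT and 3 homozygous GFAP-IL6 samples were grouped by their titles. The authors deposited raw counts per gene with gene lengths. Per the study's methods, STAR aligned the reads to mm10 and these were counted on GENCODE vM6 genes with featureCounts. The submitters' processing notes name STAR 2.4 and the build hg19, while the gene identifiers are those of mouse. The study describes the counted reads as uniquely aligned, in its account of its own pooled protocol. Whether strand was used is not given in the sources used here. Genes passing filterByExpr were tested across all 6 libraries with edgeR 4.0.16 (TMM, quasi-likelihood F-test, no covariate) and Benjamini-Hochberg adjustment over all genes tested, after a test on simulated data. CPM are TMM-scaled, apart from detection floors on raw totals, and TPM use the deposited lengths. Ratios were compared by exact permutation. Alternatives were no low-count filter, a mean CPM of at least 1, RLE size factors, DESeq2 1.42.0, limma-voom (limma 3.58.1), thinning to the smallest total, a replicate block, adding near-identical copies, and leaving out each library. The members and gene lists were chosen with earlier results of these data known. Named genes were all members, copies with a count, Il6 and Gfap, list genes past the threshold and a set of list genes named regardless of p. Positions and UTRs came from GENCODE M21 on GRCm38, the assembly of mm10, which is a later annotation than that used for counting. Lists of neuron, cortex, striatum, perivascular macrophage and meningeal markers were also read. No gene of these lists passed edgeR's test. A striatal gene passed with DESeq2, and 2 striatal genes and 1 cortex gene passed edgeR without the low-count filter. The cortex markers were present, and striatal markers summed to 400 CPM in WT replicate 2 and to between 179 and 227 CPM in the others. Totals of 7559524 to 16877001 counts set the precision, and floors cover counting error only.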

Additional observations from a re-analysis of the deposited data

How the results depend on the processing

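Of 153 fold changes and ratios recomputed under the alternatives, 10 reversed and 8 fold changes passed the threshold where the reported value had not. The other 135 kept their direction, and the fold changes among them also their side of the threshold. Ratios were compared by direction only. Of 28 counts of genes, 17 stayed within 1.5 times the reported count and 11 did not. Adding near-identical copies could change none of these values, because the ferritin copies listed were at 0 in every library and Hamp stayed untested. Heph passed the adjusted threshold without the low-count filter (log2 fold change -1.10, adjusted p = 4.5e-04), with DESeq2 (-1.09, adjusted p = 0.0208) and with the replicate block (-1.08, adjusted p = 0.00908). Hmox1 passed without the filter (0.73, adjusted p = 0.0238), after thinning to the smallest total (0.95, adjusted p = 0.0302) and with the block (0.73, adjusted p = 0.0483), but not with DESeq2 (adjusted p = 0.126). Thinning turned the log2 fold change of Ftl1 to -0.002. The members past the threshold numbered 1 as reported, 3 without the filter, 2 with DESeq2, 2 after thinning and 3 with the block, and Cp was among them each time. The wider iron genes past it numbered 3 as reported, 8 without the filter and 6 with the block. Over all genes, 439 passed as reported, 1154 without the filter, 750 with the block, 187 without GFAP-IL6 replicate 3, 282 without GFAP-IL6 replicate 2 and 1061 without WT replicate 1. The cause was not tested.

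Same-numbered samples correlated at 0.0996, 0.0147 and 0.0211 in their deviations from the group means, so the numbers were not taken to pair samples. All samples but WT replicate 2 and GFAP-IL6 replicate 3 correlated best with their own number, a hint from the data and not from the design.

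Leaving out each library in turn gave log2 fold changes from 0.82 to 1.05 for Cp, -1.38 to -0.80 for Heph, 0.61 to 0.82 for Hmox1, -0.44 to -0.20 for Slc40a1, -0.50 to 0.30 for Trf, 0.03 to 0.13 for Tfrc, -0.04 to 0.05 for Slc11a2, -0.17 to 0.07 for Fth1 and -0.06 to 0.10 for Ftl1. The members past the threshold ranged from 1 to 2 and the wider genes from 3 to 6. Without WT replicate 1 or WT replicate 2, 2 members passed (Cp and Heph), and the wider genes numbered 6 and 5. Without GFAP-IL6 replicate 1 the wider genes numbered 5. The log2 ratios differed by -0.11 to -0.001 for Fth1 to Ftl1, -0.001 to 0.23 for Tfrc to Fth1 and -0.46 to -0.30 for Slc40a1 to Tfrc. The reversals were those of Trf, Fth1 and the ratio of Tfrc to Fth1 without WT replicate 2, and of Slc11a2 and Ftl1 without 3 libraries each, none at an adjusted p under 0.05. Depth limits Hamp, Hamp2, Lcn2, Hp, Hpx and Tmprss6, which did not pass the low-count filter. Without it, all but Lcn2 had an adjusted p of 0.293 or more by edgeR.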
